A study of Mus musculus with 7 samples.

Results

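The genes described here are the leptin receptor gene Lepr together with ligands and receptors that signal through gp130, and with Stat3 and Socs3 downstream of them. They are 10 genes of the 20354 in the deposited table, namely Lepr, Il6, Il6ra, Il6st, Socs3, Stat3, Osm, Osmr, Lifr and Lif, and each had a row. They were chosen from a pathway that the phosphatase Shp2 binds directly, at a time when the knockout over WT fold changes of the same 7 libraries were known. Their fold changes are therefore given as descriptions, and the calls of the fits beside them support nothing further.

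RNA was sequenced from the liver nonparenchymal fraction, the liver cells other than hepatocytes, of untreated 2-month-old C57BL/6J mice. The 3 knockout libraries come from Shp2ΔK mice (Shp2f/f:Clec4f-Cre+/-), in which Cre driven by Clec4f, a gene of Kupffer cells, deletes the floxed Shp2 gene Ptpn11 in these resident liver macrophages. The other 4 libraries are labelled WT, and the labels do not say whether these mice carry the floxed allele or Cre. Titles of the knockout libraries all name Shp2, whereas their genotype entries differ (Shp1, Shp2, Shp3), and the titles were followed. The labels do not tie each library to a separate mouse, so the errors below measure the spread between libraries.

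The cytokine receptors of this family have no kinase of their own. A ligand brings gp130, the shared subunit encoded by Il6st, together with a more specific receptor chain, and bound Janus kinases then phosphorylate the receptor tails and the transcription factor STAT3. The leptin receptor is built like gp130 and also signals through STAT3, and SOCS3, a product of a STAT3 target gene, shuts the pathway off. Shp2 and SOCS3 bind the same phosphorylated tyrosine of gp130, and likewise of the leptin receptor, where Shp2 links the receptor to the RAS-ERK pathway.

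Promoters of 3 members are shown here, those of Lepr and Il6 because these genes moved apart between the groups and that of Socs3 because it is a direct target of STAT3. Each is the RefSeq window from 250 bases before to 50 bases after a start site, on build GRCm38.p6, which is not the build of the counts. RefSeq windows were used for 9 of the 10 members, 11 windows in all after a filter by chromosome that was applied to the members only. Osm had no window, which was not due to this filter, and its promoter was not searched. Capitals mark matches to TTCNNNGAA (STAT), TGANTCA (AP-1) and TTGCNNAA (C/EBP), searched on both strands, and no matches to different motifs overlapped in these windows.
Lepr, first start site, chr4:101717157-101717456, plus strand: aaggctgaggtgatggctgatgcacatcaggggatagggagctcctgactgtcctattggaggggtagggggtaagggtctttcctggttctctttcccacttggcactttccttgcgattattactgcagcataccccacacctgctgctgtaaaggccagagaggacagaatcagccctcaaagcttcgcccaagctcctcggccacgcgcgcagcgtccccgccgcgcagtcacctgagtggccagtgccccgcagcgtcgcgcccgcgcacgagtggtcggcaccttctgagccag
Lepr, second start site, chr4:101717656-101717955, plus strand: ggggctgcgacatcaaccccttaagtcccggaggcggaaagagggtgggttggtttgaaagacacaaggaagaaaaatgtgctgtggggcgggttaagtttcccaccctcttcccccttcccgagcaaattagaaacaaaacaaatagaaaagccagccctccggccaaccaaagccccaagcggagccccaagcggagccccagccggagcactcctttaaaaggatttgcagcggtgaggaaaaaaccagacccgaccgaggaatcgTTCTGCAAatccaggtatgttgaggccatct
Il6, chr5:30012864-30013163, plus strand: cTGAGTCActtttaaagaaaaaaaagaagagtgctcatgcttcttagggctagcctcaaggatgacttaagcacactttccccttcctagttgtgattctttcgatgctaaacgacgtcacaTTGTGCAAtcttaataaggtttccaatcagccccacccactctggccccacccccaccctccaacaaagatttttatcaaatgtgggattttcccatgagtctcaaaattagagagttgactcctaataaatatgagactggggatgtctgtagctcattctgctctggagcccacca
Socs3, chr11:117969317-117969616, minus strand: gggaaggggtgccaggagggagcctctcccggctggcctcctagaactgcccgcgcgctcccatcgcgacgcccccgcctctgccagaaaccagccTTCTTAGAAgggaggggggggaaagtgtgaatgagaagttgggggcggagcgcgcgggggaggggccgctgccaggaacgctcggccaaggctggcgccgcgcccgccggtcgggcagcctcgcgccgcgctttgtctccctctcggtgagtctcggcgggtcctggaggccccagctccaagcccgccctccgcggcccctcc

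The Socs3 window held TTCTTAGAA, beginning 154 bases before the start site. It was the only match to the STAT motif in the 11 windows, and the motif occurs in 8.30% of all 32851 promoter windows of this length. The second Lepr window held a C/EBP match 19 bases after the start. The Il6 window held an AP-1 match 249 bases and a C/EBP match 128 bases before the start. The AP-1 motif occurs in 7.81% and the C/EBP motif in 10.8% of all windows. Of the other members, the Lif and Osmr windows each held 1 AP-1 match. These matches describe the letters only.

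Library totals were 15263666 to 32003205 counts in the knockout and 11678385 to 26545605 counts in the WT group. Values are CPM, counts scaled to a common library size with TMM factors, and 3 counts correspond to 0.0909 to 0.249 CPM. An earlier analysis of these data set 2 libraries apart, knockout replicate 3 and WT replicate 2. Rn18s, a ribosomal RNA gene, made up 7.54% of counts in knockout replicate 3 and 0.0527% to 0.122% elsewhere. Ptpn11 itself was at 70.0 to 86.2 CPM in knockout and 75.3 to 95.5 CPM in WT libraries, a log2 fold change of -0.09 ± 0.18 (SE), so the deletion in Kupffer cells was not visible at the gene level in the whole fraction. The 10 Kupffer cell markers summed to 3371 to 4460 CPM in knockout and 4581 to 9466 CPM in WT libraries. The gap was narrow, and it closed when Clec4f, the gene whose promoter drives the Cre, was left out. The sums were then 2917 to 3595 CPM in knockout and 3195 to 6810 CPM in WT libraries, and the groups overlapped. Other markers were not left out in the same way, so the gap is not tied to Clec4f alone. Of the 10 markers, 6 were lower in knockout libraries without overlap, among them Cd163 and Timd4, while Cd5l, Slc40a1, Marco and Id3 overlapped. The 10 sinusoidal endothelial markers summed to 4786 to 7300 CPM in knockout and 4469 to 11464 CPM in WT libraries, with WT replicate 2 the highest. None of these 20 markers was at 0 in any library. In such bulk libraries fewer cells of a type and less RNA per cell cannot be told apart.

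Lepr was 2.72-fold lower in the knockout fraction by the ratio of mean CPM, while the ligand genes Il6 and Osm were 1.93-fold and 1.64-fold higher, and in these 3 genes the groups did not overlap. The other 4 receptor genes also had lower means but overlapping groups. WT replicate 2 was the highest library for all 5 receptor genes, and without it the log2 fold change of Il6st turned to 0.17. Of the 9 members tested, the log2 fold change (knockout over WT, edgeR) was above 0 in 3 and below 0 in 6, with a median of -0.26, against 51.7% above 0 and a median of 0.01 over all 14077 genes tested. Without WT replicate 2, 5 members were above 0. The groups failed to overlap in 3 of 9 members, 1 lower and 2 higher, where the share over all genes tested was 6.07%. EdgeR's quasi-likelihood test called 0 members and 0 genes in all (0% of those tested). At an unadjusted p under 0.05 it had 3 members, Lepr, Il6 and Il6ra, and 4.62% of all genes. DESeq2 called 1 member, Lepr, where it called 0.420% of all genes, and limma voom called 0. Nothing is read from these counts, because the same contrast was known when the members were chosen.

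**Figure D1:**
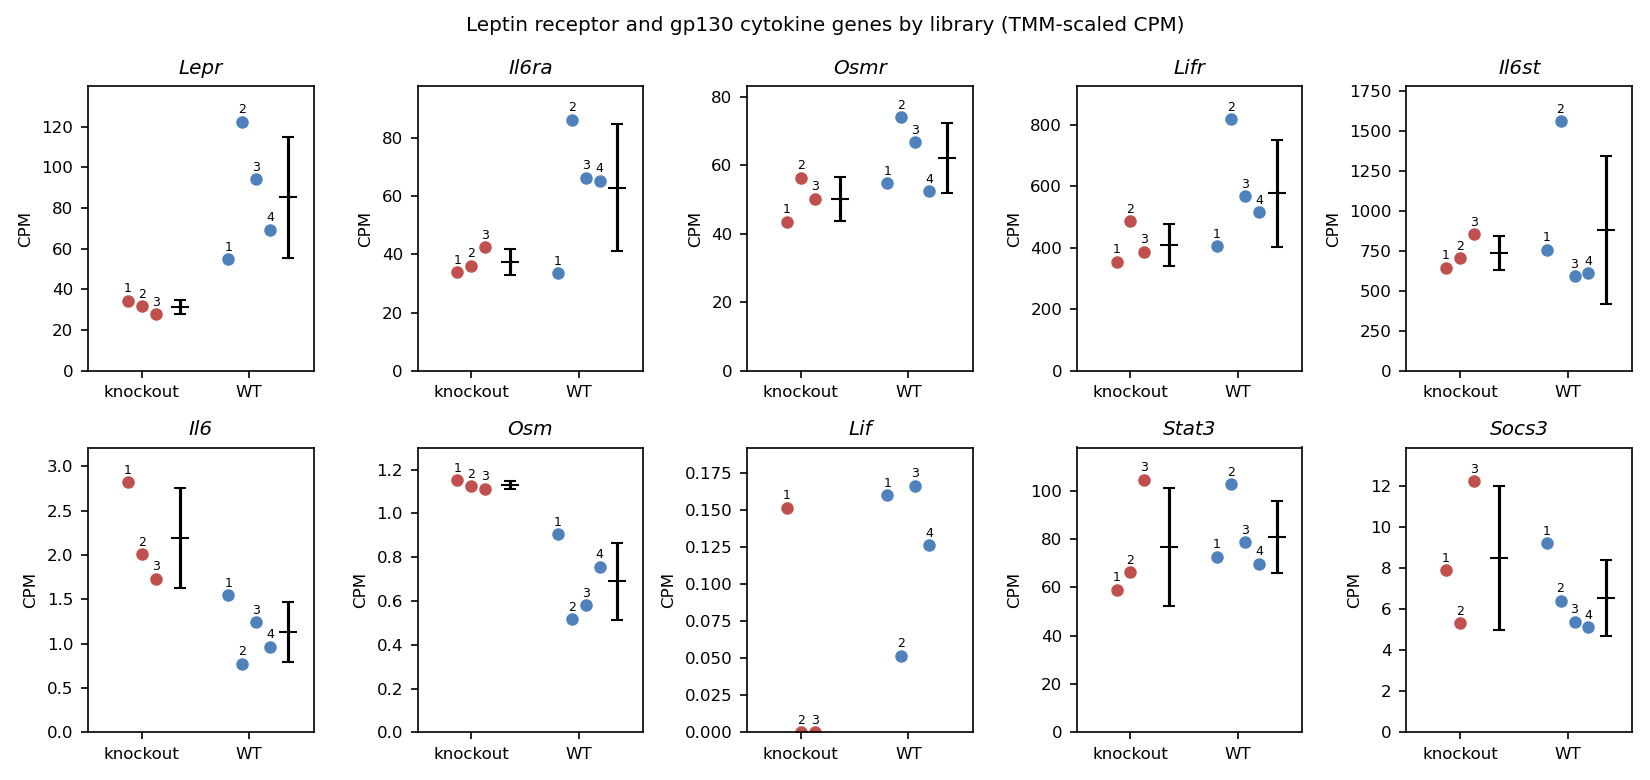
TMM-scaled CPM (vertical axes, each from 0) of the 10 genes in knockout (red, left) and WT (blue, right) libraries; each point is a library with its replicate number, and black marks give the mean ± SD except for Lif, which rests on 0 to 5 counts. The 3 knockout libraries sit below all 4 WT libraries for Lepr and above them for Il6 and Osm.

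Among the receptors, Lepr differed most. It was at 34.5, 31.9 and 27.8 CPM in knockout replicates 1 to 3, against 54.8, 122, 94.3 and 69.4 CPM in WT replicates 1 to 4. The knockout libraries lay close together, while the WT libraries spanned more than a doubling, with WT replicate 2 the highest. Lepr averaged 31.4 ± 3.38 CPM in knockout (SD, n = 3) and 85.2 ± 29.7 CPM in WT libraries (SD, n = 4). The log2 fold change was -1.44 ± 0.27 (SE). Adjusted over all genes, p was 0.360 in edgeR and 0.00117 in DESeq2, so the 2 tools stood on opposite sides of the threshold of 0.05. The counts are per gene and do not separate the long, signalling form of the receptor from its short forms.

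Il6ra encodes the subunit that binds interleukin-6. It was at 33.8, 36.1 and 42.4 CPM in knockout libraries, against 33.5, 86.2, 66.3 and 65.2 CPM in WT libraries. WT replicate 1 lay at the level of the knockout libraries and the other 3 WT libraries above all of them. The log2 fold change was -0.75 ± 0.28 (SE).

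Lifr encodes the receptor chain for leukaemia inhibitory factor, and Osmr the chain that pairs with gp130 for oncostatin M. Lifr was at 355, 487 and 388 CPM in knockout libraries, against 406, 819, 568 and 517 CPM in WT libraries. Osmr was at 43.6, 56.3 and 50.2 CPM in knockout libraries, against 54.7, 74.0, 66.8 and 52.5 CPM in WT libraries. In both genes the groups overlapped through knockout replicate 2. The log2 fold changes were -0.49 ± 0.30 for Lifr and -0.31 ± 0.19 for Osmr (SE). Lifr moved to -0.28 without WT replicate 2.

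Il6st, the gene of gp130, was the most abundant member. It was at 645, 706 and 853 CPM in knockout libraries, against 756, 1560, 592 and 610 CPM in WT libraries. Apart from WT replicate 2, the libraries of both groups covered overlapping ranges. The log2 fold change was -0.26 ± 0.38 (SE) when all 7 libraries were used.

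Among the ligands, Il6 encodes the acute phase cytokine interleukin-6. It was counted at 93, 34 and 28 reads in knockout libraries, or 2.82, 2.01 and 1.73 CPM, against 29, 15, 15 and 23 reads in WT libraries, or 1.54, 0.776, 1.25 and 0.967 CPM. The lowest knockout library lay just above the highest WT library. Il6 averaged 2.19 ± 0.564 CPM in knockout (SD, n = 3) and 1.13 ± 0.335 CPM in WT libraries (SD, n = 4). The log2 fold change was 0.96 ± 0.36 (SE), and 0.72 without knockout replicate 1.

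Osm encodes oncostatin M, a cytokine made mainly by myeloid cells, neutrophils among them. It was at 1.15, 1.12 and 1.11 CPM in knockout libraries, from 38, 19 and 18 reads. In WT libraries it was at 0.905, 0.518, 0.581 and 0.757 CPM, from 17, 10, 7 and 18 reads. The groups did not overlap, and the log2 fold change was 0.70 ± 0.36 (SE). Summed neutrophil markers were at 379, 207 and 100 CPM in knockout libraries, against 134, 62.6, 137 and 143 CPM in WT libraries, and none of the 10 was at 0 in any library. S100a8 and S100a9 made up most of this sum in the knockout libraries, and the list did not move one way. Csf3r was higher in knockout libraries without overlap, at 29.2 ± 4.25 CPM against 21.1 ± 1.57 CPM in WT libraries (SD), while Ltf and Ngp were lower without overlap. Summed markers of monocytes and recruited macrophages were at 854 to 1590 CPM in knockout and 737 to 1043 CPM in WT libraries. Of these 8 markers, 1 was higher in knockout libraries without overlap and 7 overlapped, and 5 had a log2 fold change above 0 and 3 below. Cx3cr1 and Plac8 were higher at an unadjusted p under 0.05 in edgeR, and DESeq2 called 1 of the 8. The part of neutrophils, monocytes and macrophages in the Osm values was not tested.

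Lif, the gene of leukaemia inhibitory factor, was near the limit of detection. It had 5, 0 and 0 reads in knockout libraries, against 3, 1, 2 and 3 reads in WT libraries. It did not pass the filter on low counts, and no fold is given. A count of 0 allows up to 0.177 CPM in knockout replicate 2 and 0.185 CPM in knockout replicate 3, above every WT value, so a difference was not detectable at this depth. Lif and Osm are neighbours on chromosome 11, and Osmr and Lifr on chromosome 15, with 0 protein-coding genes between them in RefSeq's GRCm38.p6 gene table.

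Downstream of the receptors, Stat3 and its target Socs3, the feedback inhibitor, had overlapping groups. Stat3 was at 59.1, 66.4 and 105 CPM in knockout libraries, against 72.7, 103, 78.7 and 69.8 CPM in WT libraries. Socs3 was at 7.90, 5.32 and 12.2 CPM in knockout libraries, against 9.21, 6.42, 5.40 and 5.13 CPM in WT libraries. Knockout replicate 3 held the highest value of both genes. The log2 fold change of Stat3 was -0.08 ± 0.24 (SE), and it turned to 0.07 when knockout replicate 1 was left out, to 0.0029 for knockout replicate 2 and to 0.06 for WT replicate 2. That of Socs3 was 0.37 ± 0.33 (SE) and fell to 0.02 without knockout replicate 3.

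**Figure D2:**
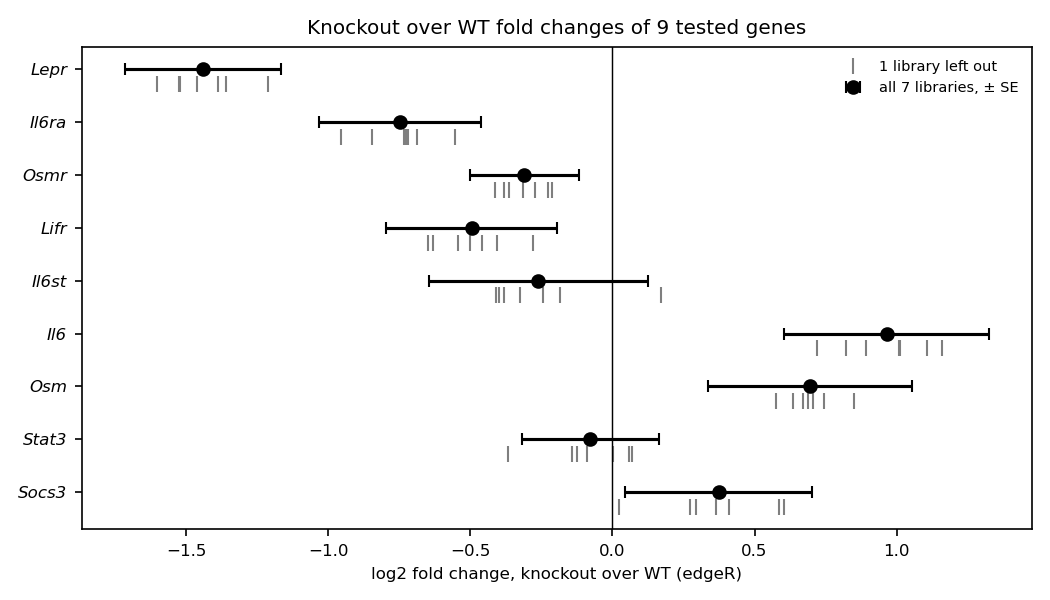
Log2 fold changes of the 9 tested genes (horizontal axis, knockout over WT, edgeR); black points are the fit on all 7 libraries with the SE, and grey ticks the fits with 1 library left out. Lepr stays between -1.60 and -1.21 in those fits, while Il6st and Stat3 lie on both sides of 0.

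**Figure D3:**
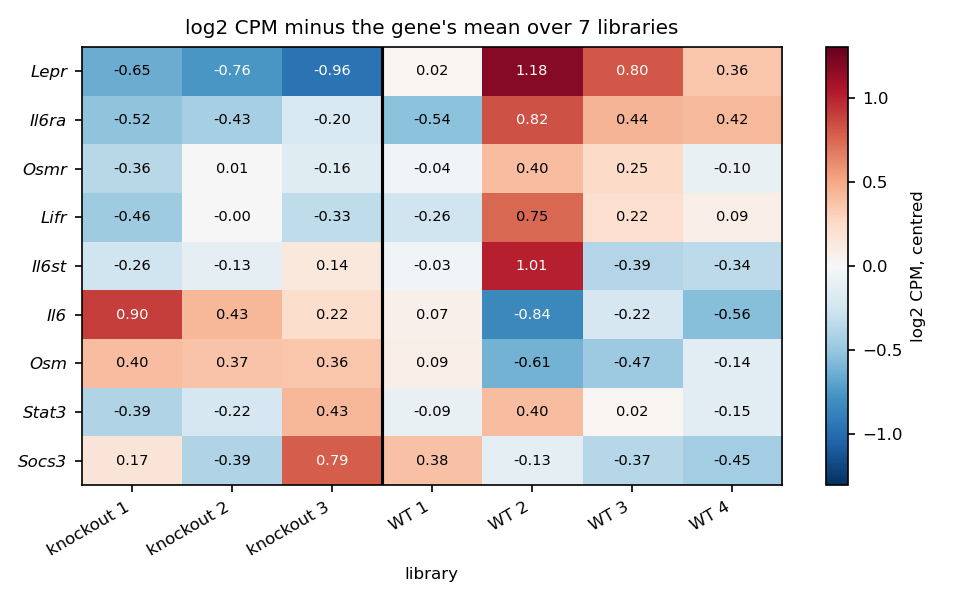
Log2 CPM of the 9 tested genes (rows) minus the gene's mean over all 7 libraries (columns, knockout left of the black line); red is above and blue below the mean. WT replicate 2 is the highest library for the 5 receptor genes and the lowest for Il6 and Osm.

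Levels can be compared between genes only per length, and CPM were divided by the kilobases of merged exons in GENCODE M21. Il6st stood first in both groups, at 66.2 ± 9.64 CPM per kilobase in knockout libraries (SD, n = 3) and 79.3 ± 41.4 in WT libraries (SD, n = 4). Lifr followed at 38.0 ± 6.40 in knockout and 53.6 ± 16.2 in WT libraries. These 2 shared subunits were above every other member in each library. Next came Stat3 (8.05 ± 2.56) and then Lepr (4.45 ± 0.480) in knockout libraries, against Lepr (12.1 ± 4.21) and then Stat3 (8.50 ± 1.57) in WT libraries. In knockout libraries Lepr, Il6ra (4.33 ± 0.516), Osmr (4.13 ± 0.527) and Socs3 (2.94 ± 1.21) overlapped as neighbours in this order. In WT libraries Lepr, Stat3, Il6ra (7.27 ± 2.52) and Osmr (5.12 ± 0.841) overlapped in the same way, as did Il6st with Lifr and Il6 with Osm, while Socs3 (2.26 ± 0.645) overlapped neither neighbour. The ligands closed the order, with Il6 at 0.901 ± 0.232 in knockout and 0.467 ± 0.138 in WT libraries, and Osm at 0.497 ± 0.00861 in knockout and 0.304 ± 0.0771 in WT libraries.

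The receptor genes were also set against the cell type markers of the same library. Il6st followed the sinusoidal endothelial markers closely. It ranged from 117 to 147 CPM per 1000 CPM of these markers in all 7 libraries, a 1.26-fold span, while its CPM spanned 2.63-fold. WT replicate 2, the highest library in CPM, was at 136 on this ratio and within the range of the others. Lepr did not follow them. It was at 6.55, 6.66 and 3.80 CPM per 1000 CPM of endothelial markers in knockout libraries, against 9.32, 10.7, 20.4 and 15.5 in WT libraries, so the groups did not overlap on this ratio.

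Against the summed Kupffer cell markers, Lepr was at 9.89, 9.46 and 6.22 CPM per 1000 CPM of markers in knockout libraries, against 9.35, 12.9, 20.6 and 12.1 in WT libraries. Here WT replicate 1 fell below 2 knockout libraries and the groups overlapped. With Clec4f left out of the sum they did not, with a mean of 9.99 in knockout and 19.6 in WT libraries. Slc40a1 and Cd5l, which overlapped, made up most of that sum. They averaged 1259 and 1178 of 3187 CPM in knockout and 1329 and 1357 of 4523 CPM in WT libraries. Single markers varied. C6, Timd4 and Cd163 were 2.83-fold, 4.74-fold and 10.6-fold lower in knockout libraries, Vsig4 and Folr2 1.87-fold and 1.54-fold lower, while Marco and Id3 had higher means. Lepr was not set against single markers. Il6st was at 185, 209 and 191 per 1000 CPM of all 10 markers in knockout libraries, against 129, 165, 129 and 106 in WT libraries. The groups did not overlap on that ratio, but did so without Clec4f, at 212 to 242 in knockout and 158 to 229 in WT libraries. Il6ra overlapped on both ratios, and averaged 9.97 in knockout and 10.2 in WT libraries over all 10 markers. Without Clec4f its means were 11.8 in knockout and 14.6 in WT libraries. Of the 10 full marker lists, Lepr was lower without overlap against 6 and overlapped against 4, those of B and plasma cells, hepatocytes, Kupffer cells, and T and NK cells. Il6 was higher without overlap against 5 lists: Kupffer cells, stellate cells and fibroblasts, T and NK cells, B and plasma cells, and dendritic cells. Osm was higher without overlap against 4 of these, not that of T and NK cells. Against neutrophil markers both overlapped, with means of 11.5 (knockout) and 9.93 (WT) for Il6, and 6.53 and 6.13 for Osm. Both also overlapped against the lists of monocytes and recruited macrophages, sinusoidal endothelial cells, hepatocytes and cholangiocytes. The sum of the 10 Kupffer cell markers was itself lower in knockout libraries without overlap, and against it Socs3 was also higher without overlap, as Il6st was. Lifr was lower without overlap against the lists of monocytes and recruited macrophages and of dendritic cells. The share of all genes without overlap on such ratios was not computed, so nothing is read from these counts of lists. Which cells carried these transcripts, and the part of the cell makeup in the differences, was not tested.

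**Figure D4:**
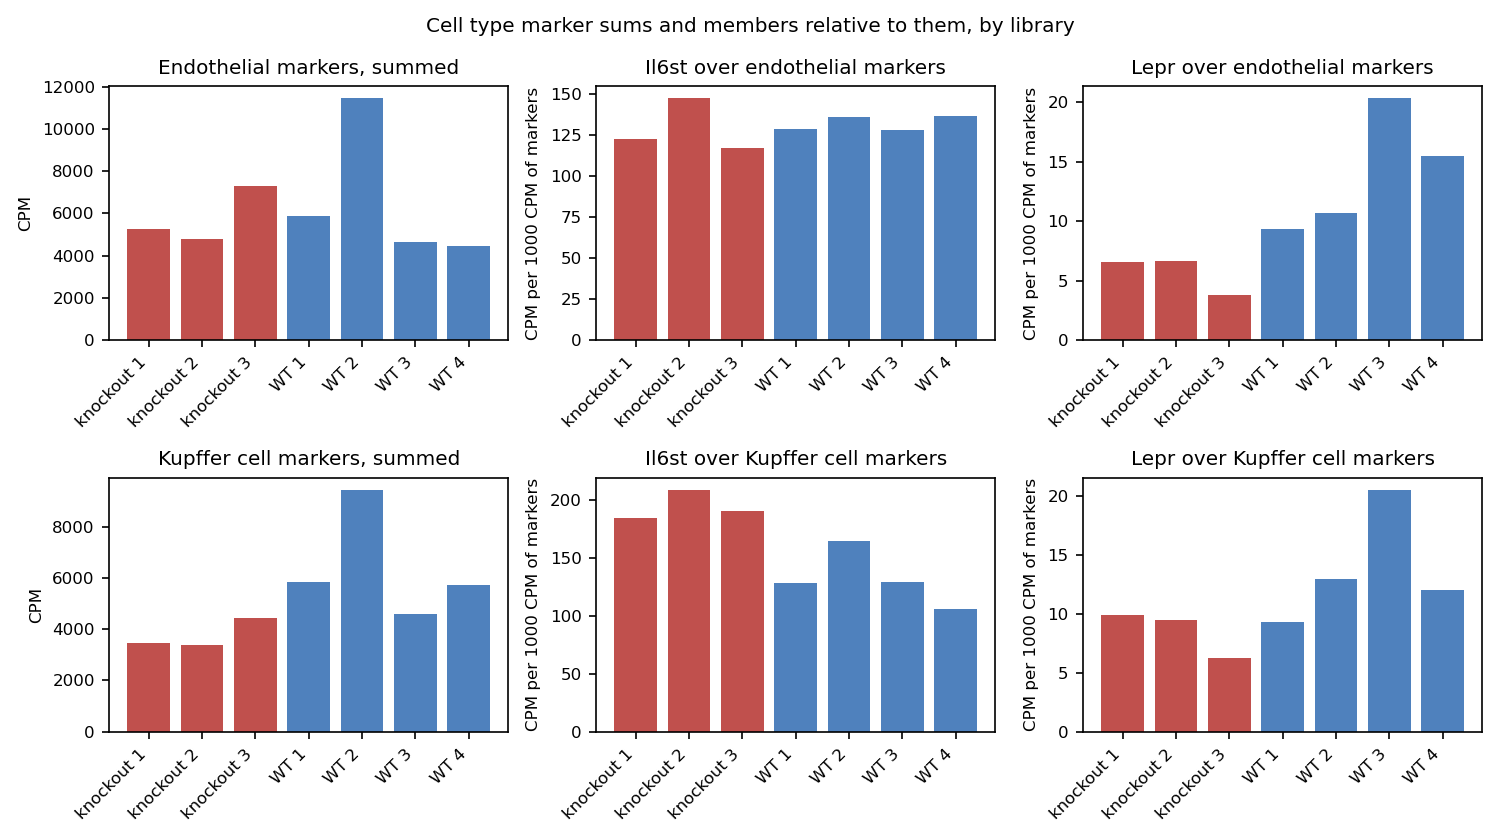
Summed CPM of 10 endothelial and 10 Kupffer cell markers by library (left), and CPM of Il6st (middle) and Lepr (right) per 1000 CPM of these markers; bars are single libraries, knockout red and WT blue, from 0. Il6st over endothelial markers is nearly level at 117 to 147, while Lepr over endothelial markers is at 3.80 to 6.66 in knockout and 9.32 to 20.4 in WT libraries.

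The genes whose pattern was most like that of Lepr were sought among 12155 other genes of at least 2 CPM on average, by Pearson's r of log2 CPM over the 7 libraries. They were Naip1 (r = 0.996), Tsc22d1 (r = 0.987), Stau2 (r = 0.978), Zhx3 (r = 0.973) and Cdc40 (r = 0.972). All 5 were below 0 in log2 fold change, Naip1 at -1.37 ± 0.30 and Tsc22d1 at -1.24 ± 0.32 (SE). Reads of Naip1 may be shared with its close paralogs. With 7 libraries and this many candidates such values describe the ranking only.

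Further genes of the pathway were examined in 6 lists of 99 genes, of which 91 could be tested. EdgeR called 0 of these and DESeq2 also 0. At an unadjusted p under 0.05 edgeR had 4, or 4.40%, close to the 4.62% over all genes. They were Bcl6, Bcl2l1 and Saa4, lower, and Batf, higher, the last named after its value was seen.

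None of the other ligands and receptors of the wider gp130 family passed (0 of 7 tested), a list that is not limited to genes signalling through gp130 itself. Their median log2 fold change was 0.32, against 0.01 over all genes, and 0.01 with WT replicate 2 and knockout replicate 3 both left out. Il11ra1, a receptor chain for interleukin-11, was at 16.1 ± 2.99 CPM in knockout and 12.9 ± 1.34 CPM in WT libraries (SD), a log2 fold change of 0.32 ± 0.21 (SE), or 0.17 without knockout replicate 3. Il27 was below 1 CPM in every library. Il11, Cntf and Il31ra were among those that did not pass the filter on low counts.

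None of the 7 leptin system genes tested passed, and their median log2 fold change was -0.27, with -0.06 without knockout replicate 2 and -0.01 without WT replicate 4. Leprot, the neighbour of Lepr on chromosome 4, encodes a membrane protein that lowers the leptin receptor at the cell surface. Leprot was at 118, 107 and 132 CPM in knockout libraries, against 160, 223, 124 and 121 CPM in WT libraries. Unlike Lepr, its groups overlapped, and its log2 fold change was -0.40 ± 0.25 (SE), or -0.18 without WT replicate 2. Its relative Leprotl1 was at -0.27 ± 0.20, or -0.17 without knockout replicate 3. Lepr shares no exon bases with another gene in GENCODE M21.

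Janus kinases, other STATs and Shp2 adaptors had 6 of 14 members above 0 and a median of -0.02. The interferon mediator Stat2 was at 0.46 ± 0.22 and Stat5a at 0.47 ± 0.25 (log2, SE). Leaving out knockout replicate 3 brought them to 0.25 for Stat2 and 0.28 for Stat5a. Negative regulators of the pathway had 6 of 15 above 0 and a median of -0.04. The STAT inhibitor Pias1 was at -0.32 ± 0.19 and the phosphatase gene Dusp22 at 0.25 ± 0.16 (log2, SE). Pias1 moved to -0.17 without WT replicate 2. The groups did not overlap in Pias1 and Dusp22, which were 2 of the 15 negative regulators, where the share over all genes tested was 6.07%. In the list of Janus kinases, other STATs and adaptors 0 of 14 were without overlap. None of either list had an unadjusted p under 0.05 in edgeR.

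General STAT3 target genes had 9 of 24 above 0 and a median of -0.07. The transcriptional repressor Bcl6 was at 9.93, 11.4 and 11.1 CPM in knockout libraries, against 12.1, 27.0, 26.3 and 17.0 CPM in WT libraries. The groups did not overlap. The difference was -0.93 ± 0.29 on the log2 scale (SE), with an adjusted p of 0.839 in edgeR and 0.270 in DESeq2. The survival gene Bcl2l1 was at -0.60 ± 0.25 and the transcription factor gene Batf at 0.62 ± 0.26 (log2, SE; edgeR, adjusted p = 0.956 for both).

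Hepatocyte acute phase genes, the classical liver targets of interleukin-6, had 6 of 24 above 0 and a median of -0.11. Their summed level was 7696 to 10325 CPM in knockout and 5722 to 16548 CPM in WT libraries. The serum amyloid gene Saa4 was at -1.20 ± 0.47 and the protease inhibitor gene Serpina3n at -0.63 ± 0.36 (log2, SE; edgeR, adjusted p = 0.956 for both). Saa4 moved to -0.80 without WT replicate 3, and Serpina3n to -0.21 without WT replicate 4. Hepatocyte markers summed to 17850 to 39267 CPM in knockout and 19479 to 58681 CPM in WT libraries, with WT replicate 4 the highest, as it was for the acute phase genes. All 10 of these markers had a log2 fold change below 0, with a median of -0.49, and in each the groups overlapped. The median of the acute phase genes turned to 0.30 without WT replicate 4 and to 0.04 in limma voom, and the part of hepatocyte RNA in these values was not tested.

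**Figure D5:**
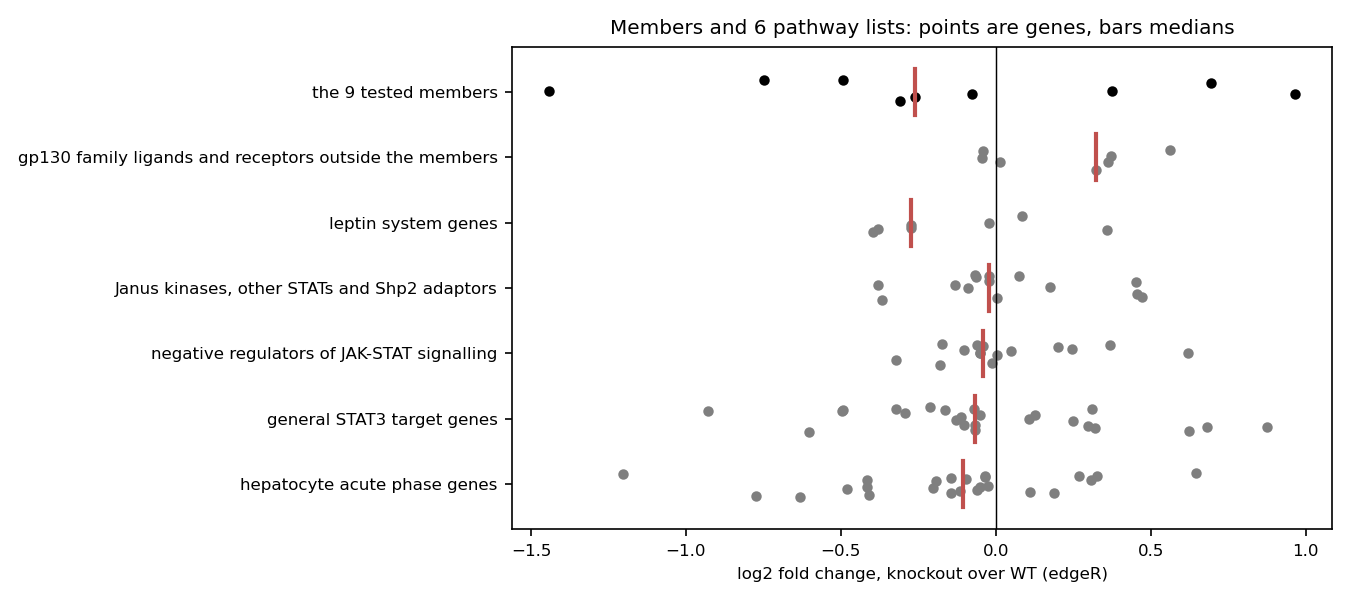
Log2 fold changes (horizontal axis, knockout over WT, edgeR) of the 9 tested members (black) and of the 91 tested genes of 6 pathway lists (grey); red bars are medians. Lepr at -1.44 lies further from 0 than any gene of the lists, whose lowest is Saa4 at -1.20.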

How the data were processed

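The deposited table holds unnormalized counts, whole numbers by gene symbol, for 7 libraries. Per the submitters' processing notes, the authors used STAR 2.7.10a and featureCounts 2.0.3 with GRCm39. No label names the strand setting, so reads of antisense partners cannot be told apart (Il6ra shares 2.80% and Stat3 0.756% of their exon bases with a gene on the other strand in GENCODE M21).

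Counts were tested with edgeR 4.0.16 in R 4.3.3 (quasi-likelihood, robust, TMM factors, group only, all 7 libraries). The filter filterByExpr (minimum count 10, minimum total 15) kept 14077 genes, and p-values were adjusted over these by Benjamini-Hochberg at 0.05. Standard errors come from the fold change and test statistic; log2 CPM used a prior count of 2. The same code was tested on simulated data. Alternatives were DESeq2 1.42.0, limma 3.58.1 voom, other scalings and filters, and leaving out libraries.

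Members and lists were chosen with earlier results of these data known. Named genes are the members, the 2 genes of each pathway list with the smallest p, and the 5 genes most like Lepr and Il6. Ratios to marker sums, and leaving Clec4f out of them, were chosen after values were seen. Intervals cover the spread between libraries only.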

Additional observations from a re-analysis of the deposited data

Results flagged for a closer look

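Il6st in WT replicate 2, at 1560 CPM, lay far above the other WT libraries at 592 to 756 CPM. The gap took 0.830 of the range of the 4 libraries, just past Dixon's 95% critical value. Chance alone flags about 1 group in 20, and 9 genes were examined. Summed sinusoidal endothelial markers were also highest in this library, at 11464 CPM, and so were summed Kupffer cell markers, at 9466 CPM against 4581 to 5865 CPM in the other WT libraries. Il6st per 1000 CPM of endothelial markers was 136 in this library, within the 128 to 137 of the other WT libraries, and 165 per 1000 CPM of Kupffer cell markers, against 106 to 129. The part of the cell makeup was not tested.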

How the results depend on the processing

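Lepr, Il6, Il6ra, Osm, Osmr, Lifr and Socs3 kept the sign of their log2 fold change in all 14 alternatives run. Lepr ranged from -1.60 to -1.13, with an adjusted p of 0.00117 (DESeq2) to 0.851 (without knockout replicate 2). Without 1 library, Il6st ranged from -0.41 to 0.17 and Stat3 from -0.37 to 0.0697, and Il6st was at 0.0482 with WT replicate 2 and knockout replicate 3 both left out. The count of members above 0 was 3 to 5 and of members called 0 to 0 without 1 library, and DESeq2 called 1 member.

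Genes called over the whole table numbered 0 without any 1 library, 66 in DESeq2, 3 with library size only, 3 with no filter and 2 with WT replicate 2 and knockout replicate 3 both left out. Over the 6 pathway lists, genes called stayed at 0 throughout, and those at unadjusted p under 0.05 numbered 2 to 6 without 1 library and 2 in limma voom. The medians of the Janus kinase (-0.07 to 0.09), negative regulator (-0.12 to 0.03), STAT3 target (-0.18 to 0.04) and acute phase lists (-0.28 to 0.30) took both signs over the alternatives. No paired analysis was possible because the labels give no replicate numbers shared between the groups. Depth limits Lif, with at most 5 reads in a library, and Il6 and Osm, with at most 93 and 38.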

Other observations

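The 5 genes whose log2 CPM was most like that of Il6 over the 7 libraries, among 12156 others of at least 2 CPM on average, were Mlph (r = 0.971), E130307A14Rik (r = 0.968), Gbp11 (r = 0.966), Zgrf1 (r = 0.966) and Triqk (r = 0.963). Gbp11, of a family of interferon-induced GTPases, had a log2 fold change of 1.42 ± 0.52 and Mlph, which encodes melanophilin, 0.89 ± 0.27 (SE), and edgeR called neither. These values describe the ranking over 7 libraries that also hold the difference between the groups.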
